A study of Caenorhabditis elegans with 2 samples.

Results

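The snoRNA genes that lie wholly inside a protein-coding gene on the same strand, here called nested snoRNA genes, were taken from the Ensembl release 115 annotation of the WBcel235 assembly (ce11). There are 183 of them among 346 nuclear snoRNA genes, in 156 host genes, and the other 163 lie outside such hosts. Membership used the annotation alone and no measured value. In 3 of the 183 genes a pair of hosts overlapped, and the smaller one was used. Introns of the host held 145 of the genes, and 38 overlapped a host exon.

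The data are chromatin immunoprecipitation with sequencing (ChIP-seq) of NHR-232, a nuclear hormone receptor, fused to GFP, in whole hermaphrodite late embryos of Caenorhabditis elegans taken 5 hours after synchronisation by bleaching. The strain was OP489, with the genotype unc-119(tm4063) III and the integrated transgene wgIs489, and all samples shared it. The 2 biological replicates form 1 group, and no control sample was analysed here, so no test compares conditions. An antibody against GFP was used, per the labels, and the promoter that drives the transgene is not given in the sources used here. Since whole embryos were used, a signal cannot be assigned to a cell type.

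Small nucleolar RNAs (snoRNAs) guide the chemical modification of ribosomal RNA, box C/D snoRNAs its methylation and box H/ACA snoRNAs its pseudouridylation. In vertebrates most of them are cut out of host introns after splicing, whereas in C. elegans some nested snoRNA genes have been described as having promoters of their own, read by RNA polymerase III. At tRNA genes, that polymerase is recruited by internal promoter elements called the A box and the B box, which the factor TFIIIC binds, and it stops at a run of T bases on the coding strand.

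The authors' pooled list holds 21094 candidate regions called on both replicates together, and 2.46% of these are in their IDR list. The irreproducible discovery rate (IDR) scores how alike regions rank between replicates, and the list used here is labelled optimal. A region in it need not rank alike in both replicates. The region matched at the gene R166.7 was at rank 3747 in replicate 1 and 408 in replicate 2. Another region of replicate 1 near that gene was at rank 937. A gene was counted when the summit of a region, its highest point, lay within 200 bp of the gene. The sequences below show the 120 bases before the 5′ end of the 6 genes of highest signal with different hosts, since most summits lay in this stretch. They were read 5′ to 3′ on the gene's strand from the RefSeq genome sequence of WBcel235. Capitals mark the A core GGNNNAG and the B core GTTCNA, in that order and with their starts 25 to 75 bases apart, and where several such pairs were present the one nearest the gene is marked. These letters were written down after the upstream sequences of snoRNA genes with IDR summits, nested and outside hosts, had been read.
C51F7.3, host frm-7, chrV:12303588-12303707, plus strand: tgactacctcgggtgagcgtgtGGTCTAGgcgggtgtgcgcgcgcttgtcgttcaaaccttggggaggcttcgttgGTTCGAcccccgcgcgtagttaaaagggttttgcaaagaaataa
Y43F8C.22, host Y43F8C.7, chrV:19643188-19643307, minus strand: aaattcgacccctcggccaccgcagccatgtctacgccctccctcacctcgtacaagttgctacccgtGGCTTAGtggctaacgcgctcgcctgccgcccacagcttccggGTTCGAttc
ZK994.7, host pxn-1, chrV:8500459-8500578, plus strand: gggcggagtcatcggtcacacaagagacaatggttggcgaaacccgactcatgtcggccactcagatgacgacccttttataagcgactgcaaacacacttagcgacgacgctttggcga
C05D2.15, host madf-11, chrIII:5602180-5602299, minus strand: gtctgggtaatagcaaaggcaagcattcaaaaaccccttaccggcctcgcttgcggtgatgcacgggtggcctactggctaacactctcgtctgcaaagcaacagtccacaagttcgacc
C10C6.8, host catp-8, chrIV:11474192-11474311, minus strand: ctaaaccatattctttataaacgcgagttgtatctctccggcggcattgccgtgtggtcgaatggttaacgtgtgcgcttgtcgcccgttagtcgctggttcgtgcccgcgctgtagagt
D1046.6, host cfim-2, chrIV:8927145-8927264, plus strand: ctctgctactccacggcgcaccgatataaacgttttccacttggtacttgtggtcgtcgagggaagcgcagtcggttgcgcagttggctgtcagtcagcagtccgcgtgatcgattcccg

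The first 2 hold both cores and the other 4 do not hold the exact pair. The stretch printed for C51F7.3 also holds the whole nested gene C51F7.4 (chrV:12303599-12303693), and the pair marked there lies within that gene. For contrast, a nested gene of the ribosomal protein gene rpl-6 and one of nol-56, which encodes a core protein of box C/D particles, had no region in any list. They were picked after their values were seen. The host exon upstream lies 24 bp from R151.12 and 32 bp from K07C5.12. Most of each stretch below is therefore outside the intron that holds the gene. For the 6 genes above, this distance ran from 108 bp (C51F7.3) to 421 bp (C05D2.15), so the contrast is not one of intron sequence alone.
R151.12, host rpl-6, chrIII:7208899-7209018, plus strand: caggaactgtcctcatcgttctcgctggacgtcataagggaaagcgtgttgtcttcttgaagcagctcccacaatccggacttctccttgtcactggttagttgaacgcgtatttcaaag
K07C5.12, host nol-56, chrV:10351863-10351982, minus strand: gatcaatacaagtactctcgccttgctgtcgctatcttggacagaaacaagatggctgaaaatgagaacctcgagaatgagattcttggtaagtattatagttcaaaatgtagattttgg

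IDR summits lay within 200 bp of 23 of the 183 nested snoRNA genes (12.6%, 95% Wilson interval 8.52 to 18.1). The same count over all nuclear genes was 1.79%, and over nuclear protein-coding genes 1.59%. Among other genes nested on the same strand, the share was 35.3% of 167 tRNA genes, 2.61% of 1109 genes annotated as noncoding RNA, 2.70% of 74 miRNA genes and 0 of 2872 piRNA genes. The snoRNA genes outside hosts had 29 of 163 (17.8%, interval 12.7 to 24.4), and this interval overlaps that of the nested genes. All intervals cover counting error only, and neighbouring genes are not independent.

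In the pooled candidate list the share of nested genes lay between those of the backgrounds. A pooled summit lay near 64 of 183 (35%, interval 28.4 to 42.1), against 44.2% of snoRNA genes outside hosts, 42.0% of protein-coding genes and 25.6% of all nuclear genes. Among the other nested genes it was 63.5% for tRNA, 26.7% for noncoding RNA, 24.3% for miRNA and 2.02% for piRNA genes. Of the 64, 23 had an IDR summit (35.9%), against 29 of 72 snoRNA genes outside hosts (40.3%) and 837 of 11997 nuclear genes of any kind (6.98%) with a pooled summit. No list, single replicates included, had a summit near 97 nested genes (53.0%).

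The 23 genes took 22 regions as their nearest, because C51F7.3 and C51F7.4 share the region of rank 2. These genes lie 1224 and 1115 bp from the 5′ end of frm-7, which encodes a FERM domain protein. The shared region (chrV:12303425-12303851) had a signal of 418 in replicate 1 and 440.4 in replicate 2, against 863 in the IDR list, where signal was taken from the pooled replicates. Its summit lay 71 bp upstream of the 5′ end of C51F7.3 and 38 bp inside C51F7.4. The authors' signal has no stated unit and was compared within a list or, for the same region, between replicates. Counting every IDR region with a summit in the window of a nested gene, 23 in all, these made up 3 of the 20 strongest IDR regions, 10 of the strongest 100 and 4.43% of the whole list.

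After frm-7 followed Y43F8C.22 in Y43F8C.7, with a signal of 241 in replicate 1 and 272 in replicate 2 (rank 12 in the IDR list). ZK994.7 in pxn-1, the gene of a peroxidasin, had 230.2 and 261 in replicates 1 and 2 (rank 14). C05D2.15 in madf-11 had 196 in replicate 1 and 219 in replicate 2. For these 3 genes the replicates differed by less than 1.14-fold. C10C6.8 in catp-8, which encodes a P-type cation-transporting ATPase, had 196 and 212 in replicates 1 and 2. D1046.6 in cfim-2, a subunit gene of an mRNA cleavage factor, had 186 in replicate 1 and 220.4 in replicate 2. Both kept to within 1.19-fold between replicates.

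The next genes lay in hosts of varied function. C27H6.5 in unc-41, the stonin gene of synaptic vesicle recycling, had a signal of 179 in replicate 1 and 140.1 in replicate 2. F38E11.14 in cng-3, a cyclic nucleotide-gated channel gene, had 155 and 161 in replicates 1 and 2. M106.6 in mix-1, a condensin subunit gene, had 169 and 156. These 3 genes stood close together in the IDR list, at ranks 65, 66 and 67. The remaining 13 genes fell below them, with IDR signals between 225 and 89.7. They include K11C4.6 in unc-70, the β-spectrin gene, Y71F9AM.7 in the Golgi complex gene cogc-3, T08B2.13 in fars-1, which encodes a phenylalanyl-tRNA synthetase subunit, and ZK546.18 in the Mediator gene mdt-4. The others named by rank were Y38F2AR.14, T24H7.6, W08G11.6, F11A10.9 in rbm-34, C14C10.8 in ril-2 and Y71D11A.7 in acsd-1.

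Over the 23 genes the IDR signal ran from 89.7 to 863 with a median of 222 (quartiles 152 and 405), against a median of 135 for all IDR regions and 333 for the snoRNA genes outside hosts. In replicate 1 the matched region, the strongest within 100 bp of the IDR summit, had signals from 25.2 to 418 with a median of 111, and in replicate 2 from 25.96 to 440.4 with a median of 117. The ratio of replicate 1 to replicate 2 had a median of 0.948 (0.462 to 1.49). Among the strongest regions of each replicate, as many as the IDR list holds, 21 of the 23 genes had a summit in both and 2 in replicate 2 alone. The IDR procedure selects for such overlap, so this is no independent evidence of it.

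**Figure D1:**
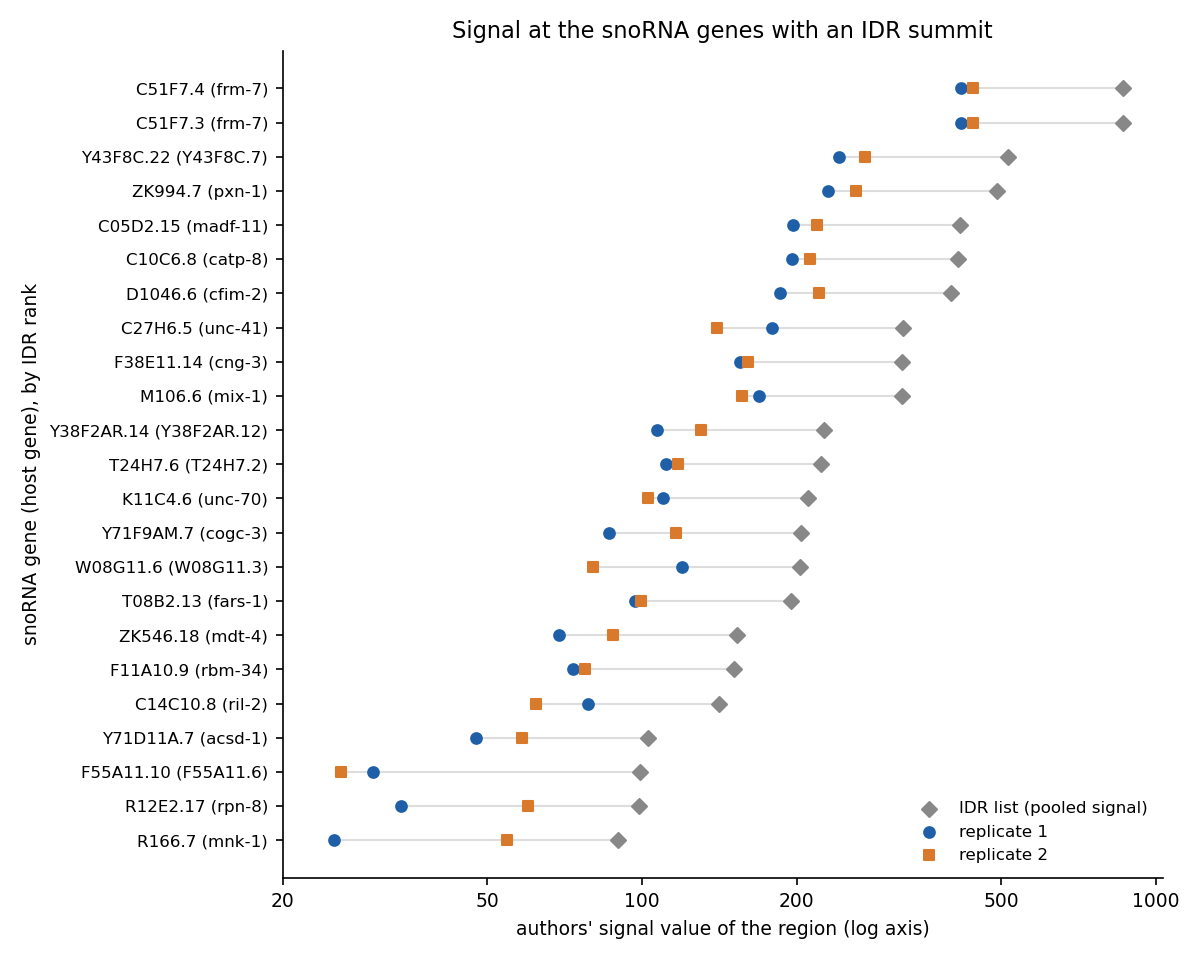
Authors' signal value (log axis) at the 23 nested snoRNA genes with an IDR summit, ordered by IDR rank, with the host in brackets; circles are replicate 1, squares replicate 2 and diamonds the IDR list. In the matched regions the replicates lie close together for the strongest genes and apart for R166.7 (25.2 and 54.6) and R12E2.17 (34.0 and 60.01).

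The 5 genes whose replicates differed most were R166.7 (2.17-fold), R12E2.17 (1.77-fold), W08G11.6 (1.49-fold), Y71F9AM.7 (1.35-fold) and C27H6.5 (1.27-fold). The value for R166.7 depends on the matching. Replicate 1 also had a stronger region there (37.2, rank 937), with its summit 1 bp from the 5′ end and so beyond the matching distance. R166.7 lies in mnk-1, a kinase gene, and R12E2.17 in rpn-8, a proteasome subunit gene. These were the 2 genes outside that top set of replicate 1. They were also 2 of the 3 genes of lowest IDR signal, at 89.7 and 98.7. R166.7 had the summit farthest from its gene, at -176 bp, followed by F11A10.9 at -110 bp and by T08B2.13 and F38E11.14, both at -96 bp.

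The third gene of low signal, F55A11.10 in F55A11.6, was the 1 nested gene with 2 IDR summits in the window. Its nearest summit, 113 bp downstream of the 5′ end, had a signal of 99.1 and lay 44 bp from the 5′ end of F55A11.11. The other summit, 94 bp upstream of the 5′ end, was at rank 35 with a signal of 381, and its matched regions had 199.9 in replicate 1 and 186 in replicate 2. With the stronger summit taken for this gene, 21 of the 23 summits lay upstream of the 5′ end.

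On the other side of the IDR threshold, the nested genes of highest pooled signal without an IDR summit were Y37E3.20 in pcyt-2.1 (88.3, rank 530), F22D6.16 in prpf-4 (63.8, rank 1243) and F25H5.9 in pyk-1 (61.1, rank 1389). Y37E3.20 had 37.7 in replicate 1 and 50.3 in replicate 2, and its summit lay 16 bp upstream of the 5′ end. Beyond the 200 bp window the nearest IDR summits were 751 bp from B0393.10, 1562 bp from F48A11.7 and 1846 bp from C41C4.16. No nested gene had its nearest IDR summit between 176 and 751 bp.

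IDR summits lay just upstream of the nested genes. The median position was -49 bp from the 5′ end (quartiles -68.5 and -28.5), where negative values are upstream. Upstream summits were found at 20 of 23 genes (87%, interval 67.9 to 95.5), and 18 of 23 fell between -100 and -1 bp (78.3%). In the matched regions of each replicate the median was -52 bp in replicate 1 and -56 bp in replicate 2. The 41 nested genes with a pooled but no IDR summit had 10 of 41 between -100 and -1 bp (24.4%, interval 13.8 to 39.3), with a median of 34 bp and a spread from -180 to 479 bp. At the snoRNA genes outside hosts with an IDR summit the median was -54 bp, and 28 of 29 lay between -100 and -1 bp.

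**Figure D2:**
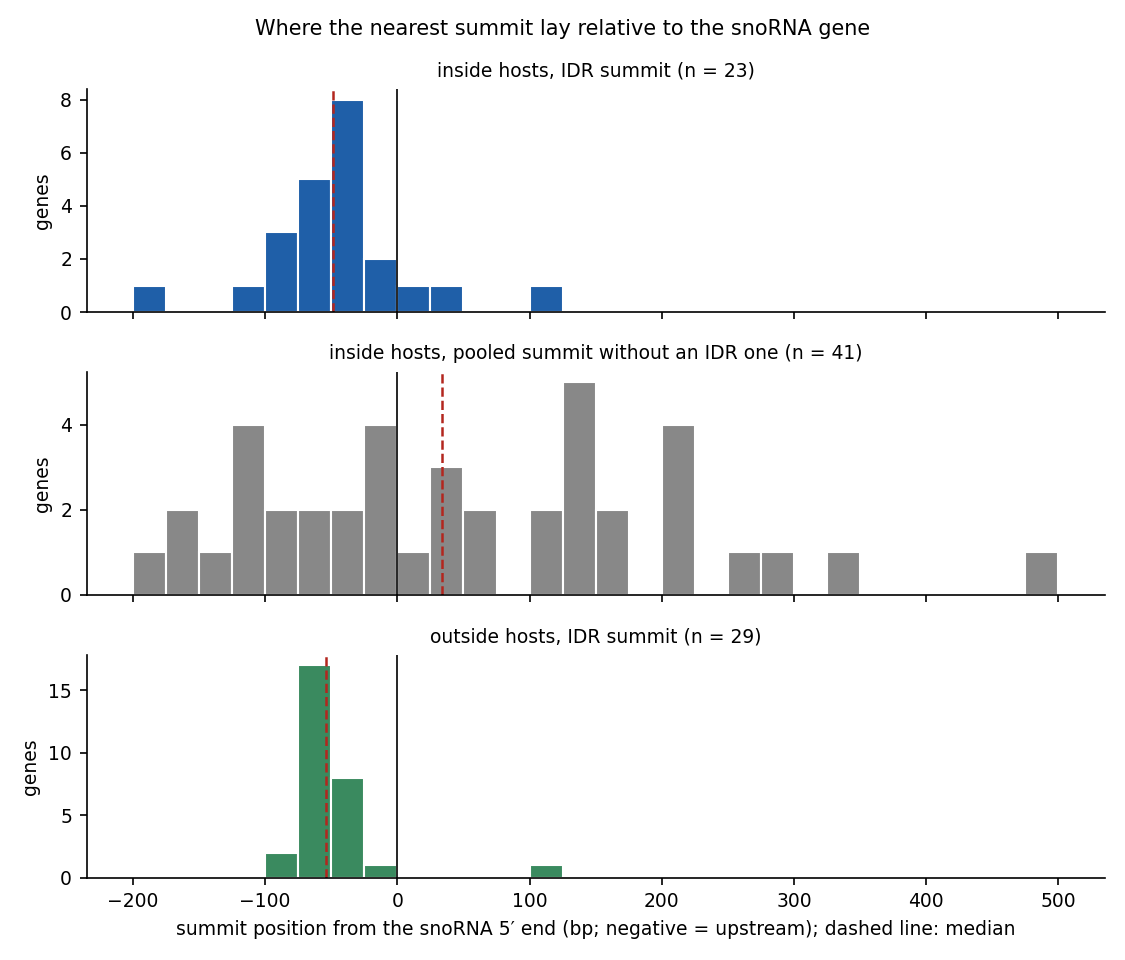
Number of snoRNA genes by position of the nearest summit from the 5′ end (bp, bins of 25 bp, negative upstream) for nested genes with an IDR summit, nested genes with a pooled but no IDR summit, and snoRNA genes outside hosts with an IDR summit; dashed lines are medians. IDR summits gather upstream of the gene (medians -49 and -54 bp), whereas the other pooled summits are spread on both sides (median 34 bp).

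None of the 23 lay in the promoter window of its own host (1000 bp before the 5′ end and 200 bp after it), and 4 lay in that of another protein-coding gene (mrps-28, wrt-3, mma-1 and F55A11.11). None had a tRNA or snRNA gene within 200 bp. The nested genes with an IDR summit lay a median of 2538 bp from the 5′ end of their host (quartiles 1299.5 and 5828.5). The median was 2298 bp for those with a pooled but no IDR summit (quartiles 891 and 4882). It was 1771 bp for those with no pooled summit (quartiles 589.5 and 7034), so the ranges overlap widely. All 23 were made up of 50-mers that occur once in the genome, flanks included, as were 168 of all 183.

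The share of genes with an IDR summit varied with the distance to the host exon upstream. None of 50 intronic genes within 50 bp of that exon had an IDR summit (0%, upper limit of the interval 7.13%). The counts were 4 of 13 from 50 to below 100 bp (30.8%), 12 of 25 from 100 to below 200 bp (48%, interval 30.03 to 66.5), 3 of 22 from 200 to below 500 bp (13.6%) and 2 of 35 at 500 bp or more (5.71%). The bins were set after the data were seen. The median distance was 143 bp for the 21 intronic genes with an IDR summit (68 to 5109 bp), 191 bp for those with a pooled but no IDR summit, and 79 bp for those with no summit in any list. The introns that held a gene with an IDR summit had a median length of 284 bp, against 404 bp for the last of these groups.

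**Figure D3:**
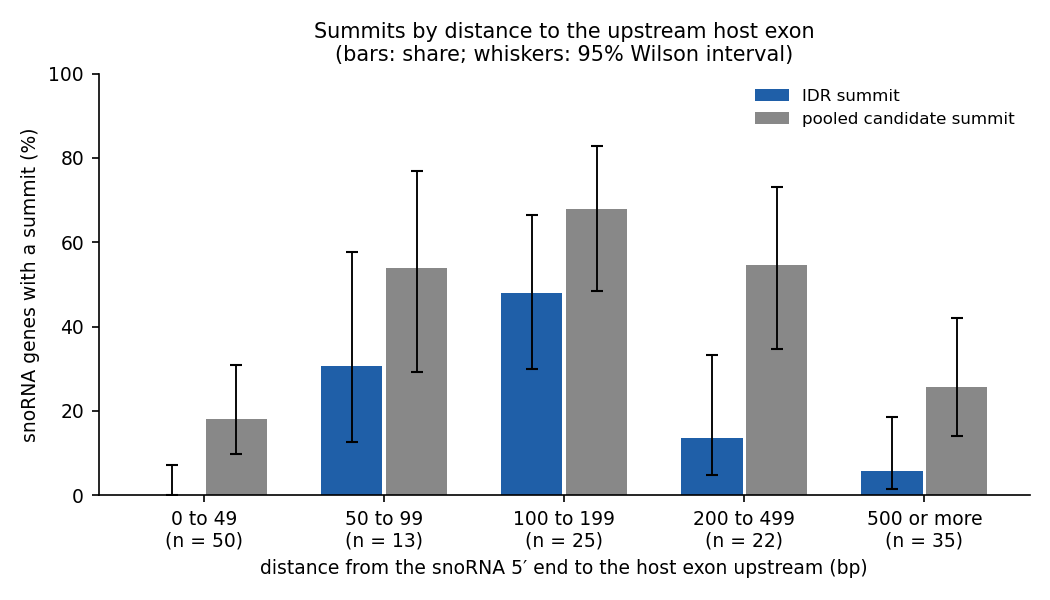
Share of intronic nested snoRNA genes with an IDR summit (blue) or a pooled candidate summit (grey), in percent, by distance from the snoRNA 5′ end to the host exon upstream (bp); whiskers are 95% Wilson intervals. The IDR share is 0% below 50 bp and 48% from 100 to below 200 bp.

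Ribosomal protein and translation factor genes, which often carry snoRNA genes in other species, had no IDR summit at their nested genes. The counts were 0 of 19 genes in ribosomal protein genes (upper limit 16.8%) and 0 of 5 in genes of translation initiation and elongation factors (upper limit 43.45%). In all other hosts the count was 23 of 159 (14.5%, interval 9.84 to 20.8), and the intervals of both groups overlap this one. The groups were made by gene symbol alone, with rpl-, rps- or rla- for ribosomal proteins. Hosts with other symbols, such as ubl-1, Y37E3.8 and mrps-2, count among the other hosts whatever they encode. So does fars-1, whose product also serves translation and whose nested gene T08B2.13 has an IDR summit. The position of the nested genes moved with the host group. Of the ribosomal protein hosts' genes, 18 of 19 lay within 50 bp of the upstream exon. There the 30 genes of other hosts, some of them in ubl-1 and Y37E3.8, also had 0 IDR summits. The part of this position in the difference was not tested.

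The hosts with most nested genes lacked IDR summits, apart from frm-7. The gene nol-56 holds 4, and rpl-6 and the topoisomerase gene top-2 hold 3 each, with 0 IDR summits between them. All those of nol-56 and rpl-6, and K12D12.6 of top-2, lay within 50 bp of the upstream exon, where no intronic gene had an IDR summit. Hosts with more than 1 nested gene had IDR summits at 2 of 50 genes (4%, both in frm-7), and hosts with a single one at 21 of 133 (15.8%). By chromosome, the share was highest on V (9 of 36, 25%) and there was none on X (0 of 10, upper limit 27.7%), with overlapping intervals.

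The class of snoRNA was read from its box sequences as a check of the annotation. By rules on letters and length, 7 genes were C/D-like, 58 were H/ACA-like, and 118 met neither rule, so most of the 183 were not checked by this. IDR summits lay near 3 of 7 C/D-like genes (42.9%, interval 15.8 to 74.9), 10 of 58 H/ACA-like genes (17.2%, interval 9.64 to 28.9) and 10 of 118 genes without a class (8.47%, interval 4.67 to 14.9). The share over all 183 was 12.6%. The intervals of C/D-like genes and of genes without a class do not overlap, and each of them overlaps that of H/ACA-like genes. This is no contrast between kinds of snoRNA, since genes without a class are those that met neither rule. Their 10 genes with an IDR summit had a median length of 74 bp, against 76 bp for the 3 C/D-like ones. C51F7.3, 1 of these 3, shares its region with C51F7.4, which has no class. Genes of both labels were therefore among those with an IDR summit. The H/ACA-like rule asks only for length and ACA near the 3′ end, so the label cannot establish the kind of snoRNA.

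The pair of cores printed in capitals above was searched on the gene's strand, from 120 bases before the 5′ end to the first 10 bases of the gene. It was found at 10 of the 23 nested genes with an IDR summit (43.5%, interval 25.6 to 63.2), 0 of 41 with a pooled but no IDR summit (upper limit 8.57%) and 2 of 119 with no pooled summit (1.68%). Read the other way, 10 of the 12 nested genes with the pair had an IDR summit, against 13 of 171 without it (7.60%). Windows of the same length held it at 0.406% of 19973 protein-coding genes and in 0.826% of 5810 other windows of the host introns, at least 500 bp from a nested gene. Counted from their own 5′ ends, 68.3% of 612 tRNA genes held it. On the opposite strand, 0 of the 183 nested genes did. Unlike the intron windows, the windows of genes near an upstream exon include host exon. Of the 50 intronic genes within 50 bp of that exon, 1 held the pair.

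In the 10 genes the A core started at a median of -60.5 bp (-98 to -49) and the B core at -16.5 bp (-44 to -5), with a median spacing of 44 bases (42 to 54). C51F7.3 holds 4 such pairs, with spacings from 28 to 66 bases, and the one nearest the gene was used; the other 9 genes hold 1 pair each, spaced 42 to 51 bases apart. The genes were C51F7.3, Y43F8C.22, M106.6, T24H7.6, K11C4.6, T08B2.13, ZK546.18, F55A11.10, R12E2.17 and R166.7. Their summits lay a median of -11.25 bp from the middle of the pair (negative upstream), with R166.7 (-149 bp) and the weaker summit of F55A11.10 (152 bp) far from it. The 2 genes with the pair and no summit in any list were F17C11.15 in the elongation factor gene eef-1G and T23B12.13 in mrps-2, a mitochondrial ribosomal protein gene.

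Since the letters were chosen after reading these sequences, the share at the nested genes is a description. The snoRNA genes outside hosts are not an independent check of it either, and they held the pair at 11 of 29 genes with an IDR summit (37.9%), 1 of 43 with a pooled but no IDR summit and 2 of 91 with no pooled summit. A second version allowed 1 letter off over both cores. It was found at 19 of 23 genes (82.6%), 9 of 41 (22%) and 15 of 119 (12.6%) in the same classes of nested genes, but also at 9.32% of protein-coding genes and in 10.7% of the other intron windows. C51F7.4, ZK994.7, C10C6.8 and D1046.6 lacked this looser version too. For C51F7.4 this holds for the searched window only, since the pair used for C51F7.3 lies further inside the C51F7.4 gene.

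**Figure D4:**
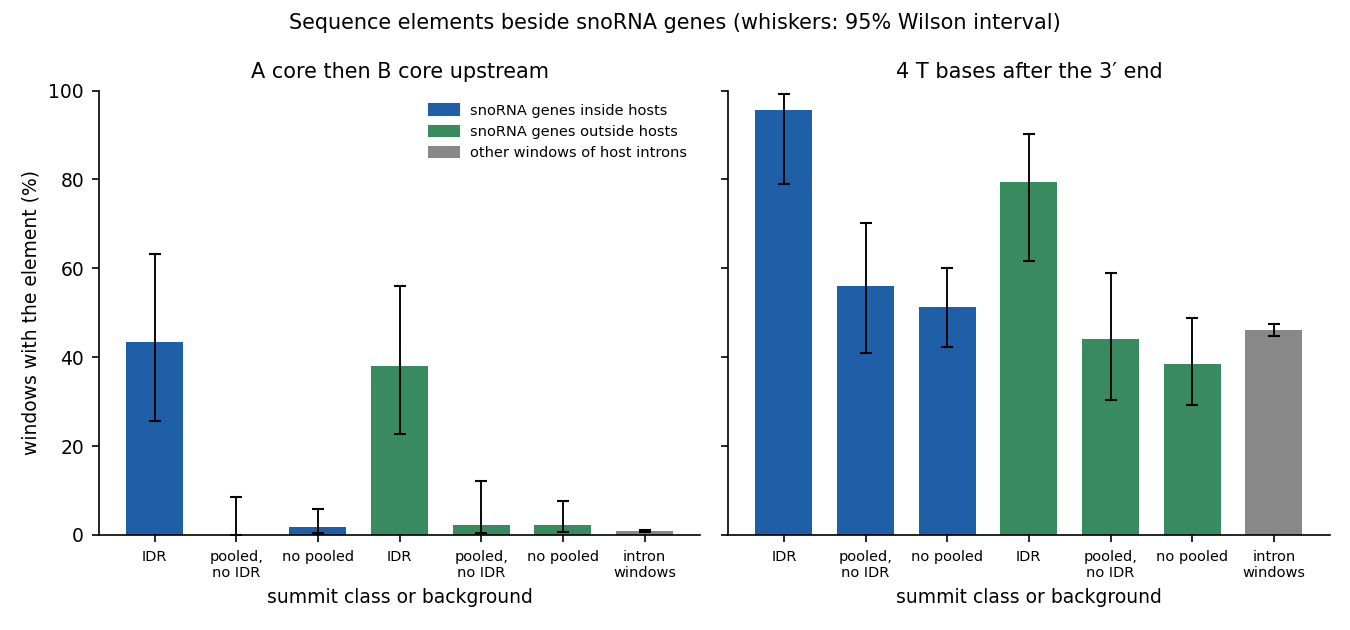
Share of sequences with the A core and B core in order upstream (left) and with 4 T bases in a row within 30 bases after the 3′ end (right), in percent, for nested snoRNA genes (blue), snoRNA genes outside hosts (green) and other windows of the host introns (grey); whiskers are 95% Wilson intervals. Nested genes with an IDR summit stand at 43.5% and 95.7%, and those with no pooled summit at 1.68% and 51.3%.

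A run of 4 T bases lay within the 30 bases after the 3′ end of 22 of the 23 genes with an IDR summit (95.7%, interval 79.0 to 99.2), C51F7.4 being the exception. It was present at 23 of 41 nested genes with a pooled but no IDR summit (56.1%), 61 of 119 with no pooled summit (51.3%) and in 46.1% of the other intron windows. Outside hosts it was present at 23 of 29 genes with an IDR summit (79.3%) and 35 of 91 with no pooled summit (38.5%). All 10 genes with both the pair and an IDR summit also had the T run.

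Base composition moved with these classes. The 120 bases upstream had a median GC content of 55.8% (46.7 to 62.5) at nested genes with an IDR summit, 45.8% at those with a pooled but no IDR summit and 39.2% at those with no pooled summit. The other intron windows had 33.1%. Among the 38 genes that lay from 50 to below 200 bp from the upstream exon, the median was 55.8% for the 16 with an IDR summit and 39.2% for the 22 without. The pair was found at 9 of those 16 and 1 of those 22, and the T run at 16 of 16 and 13 of 22. The 50 intronic genes within 50 bp of the upstream exon, none with an IDR summit, had a median of 44.2%. Their upstream stretch includes host exon, whereas the other windows were taken from introns. The part of GC content in the shares of these elements was not tested, nor was that of exon sequence in the upstream comparisons.

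Of 2080 6-mers compared on both strands of the 120 bases upstream, the 5 with the largest difference between nested genes with an IDR summit and those with no pooled summit are given here. CTGCGC occurred at 11 of 23 genes (47.8%) against 4 of 119 (3.36%), and at 1.53% of protein-coding genes. On the gene's strand it read CTGCGC at 2 genes and GCGCAG, its reverse complement, at 10. GTTCGA, the B box core, occurred at 10 of 23 (43.5%) against 7 of 119 (5.88%), in all 10 on the gene's strand with a median position of -17 bp, and at 3.56% of protein-coding genes. GGTCGA occurred at 10 of 23 (43.5%) against 4 of 119 (3.36%), and on the gene's strand it read GGTCGA at 1 gene and TCGACC at 9. CGACCC occurred at 9 of 23 (39.1%) against 1 of 119 (0.840%), and GGCGCA at 9 of 23 (39.1%) against 4 of 119 (3.36%). On the gene's strand CGACCC was as written at 9 genes, and GGCGCA at 8, with TGCGCC at 2. Several of these 6-mers overlap one another. They were chosen by this difference, so its size is no evidence. Host exon lies in the upstream stretch of genes near an exon, and its part in the difference was not tested. The snoRNA genes outside hosts took no part in this ranking, but GTTCGA is the B core whose letters were read from both kinds of gene, so they are no independent check of it. There GTTCGA occurred at 9 of 29 with an IDR summit (31.0%) against 4 of 91 with no pooled summit (4.40%), and GGCGCA at 11 of 29 (37.9%) against 7 of 91 (7.69%). CTGCGC occurred there at 7 of 29 (24.1%) against 4 of 91 (4.40%). GGTCGA and CGACCC, at 13.8% of the 29 genes each, were less frequent there than at the nested genes with an IDR summit, and stood at 3 and 2 of the 91. The TATA-type 6-mer TATAAA occurred at 5 of 23 nested genes (21.7%) against 9 of 119 (7.56%), a share close to that of protein-coding genes (21.9%). GAGAGA occurred at 3 of 23 (13.0%) against 10 of 119 (8.40%).

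The genes of the proteins that act with snoRNAs were also examined. The list held the core proteins of both kinds of particle (fibrillarin gene fib-1, nol-56, nol-58, dkc-1 and others), the assembly ATPase genes ruvb-1 and ruvb-2, and genes of the complex that activates snRNA transcription. Of 17 genes found, 0 had an IDR summit in the promoter window and 11 had a pooled one, where 1.34% and 27.2% of all protein-coding genes did. At such a background share, 0 of 17 says nothing particular of these genes. The strongest were at fib-1 (signal 71.1, rank 905) and ruvb-1 (67.2, rank 1065), below the IDR threshold.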

How the data were processed

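ChIP-seq regions of 2 biological replicates of 1 group were analysed. The authors deposited, for the ce11 build, a list per replicate (20530 regions in replicate 1 and 22891 in replicate 2), a pooled list and an IDR list. The replicate and pooled lists hold peaks together with background regions, as input for IDR, per the labels. Regions in the IDR list are those that met its threshold. Aligner and peak caller: not given in the sources used here. Regions were ranked and described by the deposited signal, which is the authors' own value. A −log10 q value per region was also deposited and was not used further. The authors' summit offset, in bp from the start of a region, placed each summit. Read totals were not used, so depth is unknown. The ce10 lists were not used.

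Genes and exons came from Ensembl release 115 and sequence from the RefSeq FASTA of WBcel235. No ce11 region ran past a chromosome end. Coordinates are 1-based. For each gene the nearest summit within 200 bp of the gene body was taken, and ties went to the higher signal. Replicate values are those of the strongest region within 100 bp of the IDR summit. This matching replaced the region nearest to the gene after that one proved, at some genes, to be a weaker neighbour. At R166.7 in replicate 1 the region nearest to the gene was the stronger one. C/D-like genes had TGATGA in the first 20 bases and CTGA in the last 15, and H/ACA-like genes were at least 110 bases long with ACA in the last 8. Shares have 95% Wilson intervals, and no test was run, since there is 1 group. Steps were checked on planted summits. The work ran in Python 3.11.15 (pandas 2.3.3, numpy 2.4.6; figures with matplotlib 3.10.9).

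The members, lists and rules were chosen with earlier results of these data known. The named genes were the 20 of highest IDR signal, those nearest the IDR and 200 bp thresholds, those of the hosts with most members, and the 5 with the largest replicate ratio. The core pair, its spacing and window, the distance bins, the other nested gene types, the contrast sequences and the comparison of genes 50 to below 200 bp from the exon were added after the data were seen. Alternatives changed the window, the distance measure, the number of IDR regions, the replicate, the intronic restriction and the counting of shared regions.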

Additional observations from a re-analysis of the deposited data

How the results depend on the processing

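Of 84 alternative values, 74 stayed within 1.5 times the main count or, for medians, within the spread between the single replicates (SD 68.5 for signal, 4.6 bp for the summit offset and 1.77 bp for the distance to the exon), and 10 moved. That spread was taken from the values with either replicate left out, which are themselves among the 84, so it is no independent measure. No median offset changed sign. The number of nested genes with an IDR summit was 23 and ranged from 19, without the summits that also lay in a protein-coding promoter, to 24. It was 24 without replicate 1 and 21 without replicate 2. The number with a pooled summit was 64 and moved with the window, from 52 with 100 bp to 95 with 500 bp, which was still within 1.5 times. The count in ribosomal protein and translation factor hosts was 0 under each alternative run. The median signal was 320.8 with the strongest 50% of IDR regions and 223.9 to 320.7 when 1 replicate was left out, read from the pooled list. The median offset was -55.5 to -49 bp when 1 replicate was left out. The median distance to the upstream exon was 145.5 bp with the strongest 50% of regions, with overlap of region and gene, with shared regions counted once and without the summits in protein-coding promoters, and 145.5 to 148 bp when 1 replicate was left out, against 143 bp. Allowing 1 letter off raised the genes with the core pair to 19, against 10. The promoter setting, the strongest summit in place of the nearest, the loosened pair and all settings for the host groups and the pair were chosen after seeing the data. The cause of these movements was not tested. The counts for single-replicate lists were not run for the pooled result or for genes found in both replicates.

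No paired analysis was possible because the 2 samples form 1 group. The depth of each replicate is unknown, 7 C/D-like genes and small distance bins give wide intervals, and no control sample was used here.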
